A study of Homo sapiens with 11 samples.

Results

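The 6 vehicle tumours of a xenograft series of 11 tumours are described here on their own, without any comparison with treated animals. They were chosen by their labels, and no measured value was used to choose them. Each tumour grew in a female athymic nude mouse, a strain that lacks mature T cells but keeps other leukocytes, after cells labelled BT-474 were placed in a mammary fat pad in a mix with 50% Matrigel. All animals of the study, controls included, carried a pellet that released estradiol slowly (0.72 mg, made to last 90 days), and entered the study once the tumour passed 95 mm3. Vehicle animals received 5% mannitol in water under the skin every 4 days, and the label gives day 33 for every library. The tumours are named below by the numbers of their titles: 001, 003, 004, 005, 006 and 007. Nothing in the labels says that each number is a separate animal, so p-values measure only the spread between these samples.

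BT-474 is a human breast cancer line known for luminal epithelial identity, for estrogen and progesterone receptors and for a strong amplification of ERBB2, the gene of the receptor HER2, and the labels call the line positive for hormone receptors and HER2. Luminal cells are known to express cytokeratins 8, 18 and 19, the adhesion molecules E-cadherin and EpCAM, and transcription factors such as GATA3 and FOXA1. Cells of mesenchymal character are known instead for vimentin, N-cadherin and the ZEB factors, which repress epithelial genes. In a solid tumour, cells far from vessels lack oxygen, and the HIF factors are known to switch on genes of glycolysis, pH control and vessel growth there.

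Totals ranged from 23992505 counts in tumour 001 to 39249329 in tumour 003. A count of 3, taken as the limit of detection, was worth between 0.0764 and 0.125 RPM (counts scaled to a common library total). Of 28152 gene symbols, 4442 had no count in any of the 6 libraries. Library 001 stood apart: 23.9% of its counts fell on its 100 most abundant genes, where the other libraries had 16.2% to 17.6%, and its log2 profile correlated with the others at 0.936 to 0.954 where the others reached 0.972 to 0.990 among themselves (Pearson, across genes, which are not independent). Results that rest on it are given with and without it.

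The sequences below are promoters of 3 oxygen-responsive and 2 inflammatory genes that varied between these tumours, shown so that the genes described later can be set beside their regulatory sequence. They were chosen after their values and matches were seen, so windows with a match are over-represented among them. Each is the 250 bases before the RefSeq start of the gene (GRCh38.p14, matched by symbol), 5′ to 3′ on the gene's strand. Capitals mark the letters searched for on both strands. In the first 3 these are ACGTG, a form of the core bound by HIF factors, whose other forms were not searched for. In the last 2 they are GGG and TTCC with 3 bases of any kind between them, a form of the NF-kB site. CA9 lies at chr9:35673678-35673927 (+ strand), ANGPTL4 at chr19:8363905-8364154 (+), CA12 at chr15:63381847-63382096 (-), CXCL1 at chr4:73869143-73869392 (+) and CCL20 at chr2:227813592-227813841 (+).
CA9: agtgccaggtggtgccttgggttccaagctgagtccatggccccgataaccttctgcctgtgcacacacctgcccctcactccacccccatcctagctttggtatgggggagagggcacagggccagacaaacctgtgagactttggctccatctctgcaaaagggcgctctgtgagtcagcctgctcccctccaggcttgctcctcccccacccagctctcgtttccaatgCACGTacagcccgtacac
ANGPTL4: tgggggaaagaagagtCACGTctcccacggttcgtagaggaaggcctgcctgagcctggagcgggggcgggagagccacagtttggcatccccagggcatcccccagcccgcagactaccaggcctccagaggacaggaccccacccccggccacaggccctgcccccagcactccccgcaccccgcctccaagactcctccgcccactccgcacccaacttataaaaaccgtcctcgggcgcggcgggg
CA12: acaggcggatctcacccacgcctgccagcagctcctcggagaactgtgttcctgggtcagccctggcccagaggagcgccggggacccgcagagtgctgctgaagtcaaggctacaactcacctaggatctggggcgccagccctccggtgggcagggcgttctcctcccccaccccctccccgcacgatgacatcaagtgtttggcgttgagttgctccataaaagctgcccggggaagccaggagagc
CXCL1: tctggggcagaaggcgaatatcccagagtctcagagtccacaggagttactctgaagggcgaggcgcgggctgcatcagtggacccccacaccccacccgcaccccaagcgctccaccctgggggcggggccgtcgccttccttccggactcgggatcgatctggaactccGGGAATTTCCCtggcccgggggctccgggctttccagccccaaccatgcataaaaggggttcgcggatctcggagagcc
CCL20: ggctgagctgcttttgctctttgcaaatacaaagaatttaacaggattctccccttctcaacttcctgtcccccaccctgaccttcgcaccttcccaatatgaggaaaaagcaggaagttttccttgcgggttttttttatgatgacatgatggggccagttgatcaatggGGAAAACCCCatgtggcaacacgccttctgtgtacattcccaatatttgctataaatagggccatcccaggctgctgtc

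The CA9 window holds ACGTG once, 13 bases from the start, and the ANGPTL4 window once, 229 bases from it, both on the opposite strand. In the CA12 window these letters are not found. In CXCL1 the capitals are an overlapping match on each strand, the nearer 68 bases from the start, and in CCL20 there is 1 match on the opposite strand, 69 bases away. ACGTG stood in 18.7% of all 27305 windows and in 23% of the 11003 windows of expressed genes, and in 11 of the 21 windows found for the 24 genes of a hypoxia list (52.4%). Among the hypoxia genes that varied between tumours, 2 of 9 windows held it, those of CA9 and ANGPTL4, while PFKFB3 and PFKFB4, not printed, had none. The NF-kB form stood in 5.61% of all windows, in 6.71% of those of expressed genes and in 10 of the 20 windows found for the 27 inflammatory genes. With 2 bases between GGG and TTCC the letters stood in 5.81%, in 7.33% and in 7 of 20. Of the varying inflammatory genes 3 had a window and 2 held the form with 3 bases, CXCL1 and CCL20, while PTGS2, not printed, had none. These counts describe letters in a window and not binding.

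The most abundant transcripts of the 6 tumours came from genes of iron storage, glycolysis, translation and the actin cytoskeleton, together with a secreted protease inhibitor and interferon-induced genes. Levels between genes are compared per length, as CPM (RPM after TMM factors that balance the libraries) per kilobase of merged exons. FTL, the ferritin light chain, came first at 5003 ± 1353 CPM per kilobase (SD, n = 6). GAPDH, a glycolytic enzyme, followed at 2821 ± 635 and TMSB10, an actin-binding thymosin, at 2577 ± 1547 on the same scale. PI3, the elastase inhibitor elafin, reached 2196 ± 1323. Among the 20 highest genes 6 encode ribosomal proteins, and 2 belong to the interferon response, IFI6 at 1288 ± 991 and ISG15, a ubiquitin-like modifier, at 701 ± 910. S100A6, a calcium-binding protein, reached 813 ± 335 CPM per kilobase, PSAP, the precursor of lysosomal saposins, 870 ± 158, and YBX1, an RNA-binding protein, 727 ± 80.8. The places of several of these genes rest on library 001. Without it ISG15 stood at 330 ± 57.8 CPM per kilobase (SD, n = 5) at rank 63 and IFI6 at 896 ± 277 at rank 10, and 16 of the 20 genes were among the 20 highest. With the median transcript length in place of merged exons, 17 of these 20 genes stayed within the highest 100.

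By counts alone, without length, GAPDH and EEF1A1, the elongation factor that brings tRNA to the ribosome, led at 8410 ± 1893 and 8366 ± 1923 CPM (SD, n = 6). FLNA, the actin cross-linker filamin A, followed, with 1482 CPM in tumour 001 and 6401 to 7855 in the other tumours. SQSTM1, an autophagy receptor, stood at 4634 ± 1178 CPM and NEAT1, the long non-coding RNA of paraspeckles, at 2499 CPM. Expression was spread widely: 14399 genes had a mean of at least 1 CPM, 2374 of at least 100 CPM and 81 of at least 1000 CPM, and these 81 held 15.6% of the counts.

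Of all counts, the 86 cytosolic ribosomal protein genes took 7.57% ± 3.50 (SD, n = 6), with 14.5% in tumour 001 and 4.89% to 7.11% in the others. Without 001 the mean share was 6.18% ± 0.960. Nuclear subunits of the respiratory chain were also higher in 001, 2.68% in 001 against 1.24% to 1.39%, as did the proteasome, 0.971% against 0.596% to 0.637%. The 17 glycolytic and lactate dehydrogenase genes went the other way, with 1.40% of counts in 001 and 1.79% to 2.19% elsewhere. Collagen chains took 0.600% ± 0.262 of counts, led by COL6A1 and COL6A2, with 0.254% in 001 and 0.980% in 004. Keratins took 0.132% ± 0.0260, led by KRT17 and KRT8. Long non-coding RNAs took 1.11% ± 0.167 over 3617 symbols, of which 660 reached 1 CPM. No symbol of the mitochondrial genome (named MT-) is in the table, so its share is not analysed here.

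**Figure D1:**
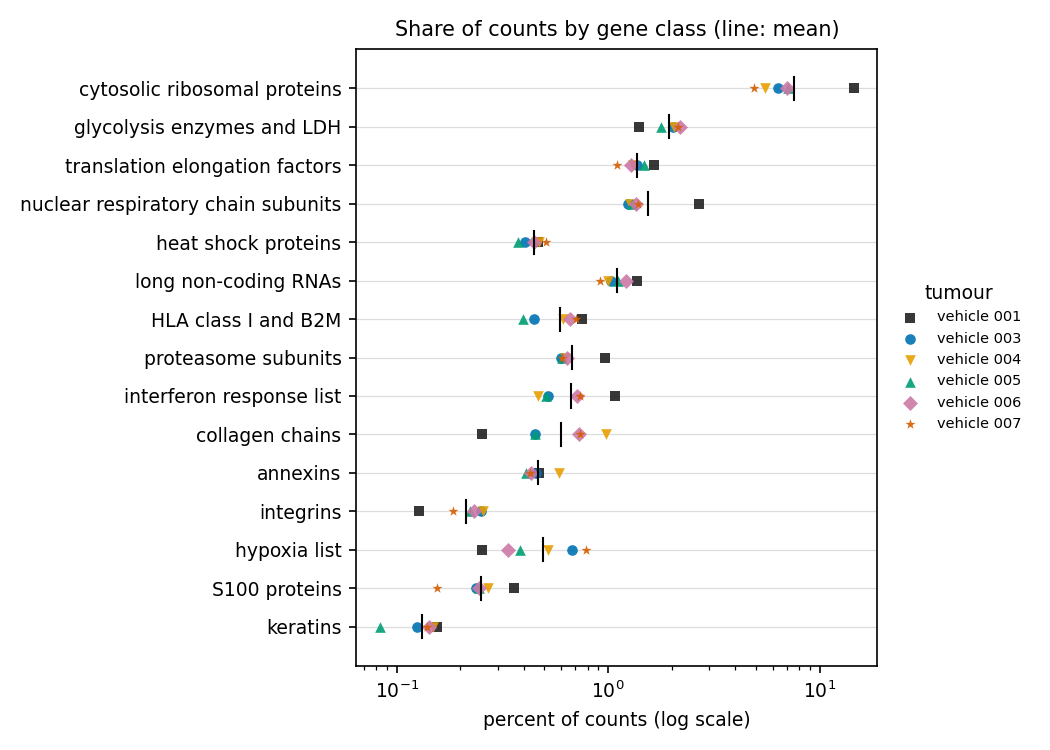
Share of counts (percent, log axis) of 15 gene classes in each of the 6 vehicle tumours, with the mean as a line. Tumour 001 lies apart on the high side for ribosomal proteins (14.5%), respiratory chain and proteasome subunits, and on the low side for collagens (0.254%) and integrins.

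The lineage genes of the tumours went against the label. Estrogen and progesterone receptor transcripts, E-cadherin, cytokeratin 19 and the HER2 neighbour GRB7 were at or near the limit of detection. ERBB2 stood at a mean of 4.93 CPM per kilobase, where the median of all 14403 genes tested was 5.53. Vimentin, N-cadherin, CD44 and EGFR were well expressed in every tumour. The tumours are therefore called by their label, as tumours labelled BT-474, and no other cell type is named.

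ESR1, the estrogen receptor, had 5, 13, 15, 7, 5 and 17 counts in tumours 001, 003, 004, 005, 006 and 007. The highest of these, in 007, is 0.597 RPM with an exact 95% Poisson interval of 0.348 to 0.956, which covers counting error only. PGR, the progesterone receptor and a known target of ESR1, had 1, 0, 5, 4, 0 and 3 counts. TFF1, another estrogen target, had 0 to 5 counts, and AGR2, a luminal protein disulphide isomerase, had 1 count in 007 and none elsewhere. Counts this low do not allow the tumours to be ranked. CDH1, E-cadherin, had 4 to 43 counts, with the 43 in tumour 006, and KRT19 had 34, 24, 21, 11, 1 and 0. GRHL2, which maintains epithelial junctions, had 0 to 2 counts, and CD24 is listed at 0 in all libraries.

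Of the 26 genes of luminal identity, 12 stayed below a mean of 1 CPM. The median gene of this list stood at 0.24 CPM per kilobase, the median of 30 mesenchymal genes at 22.4 and that of 16 basal genes at 3.16. The median of all 14403 genes tested was 5.53. It covers only genes that passed the filter of a mean of 1 CPM. The list medians include members that did not pass, 12 luminal and 3 basal genes, so the 2 kinds of median are not alike. Luminal genes that were present include KRT8 at 48.8 ± 19.4 and KRT18 at 40.5 ± 10.5 CPM per kilobase (SD, n = 6), keratins of simple epithelia, and XBP1, a factor of the secretory pathway, at 46.3 ± 14.3. GATA3 stood at 1.77 ± 0.824 and FOXA1 at 0.257 ± 0.113 on the same scale.

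ERBB2 had 25.9 CPM in tumour 001, 61.0 in 003, 48.2 in 004, 64.4 in 005, 55.1 in 006 and 50.7 in 007. Per length this is 4.93 ± 1.32 CPM per kilobase, beside 5.59 ± 1.18 for CDK12 and 8.15 ± 0.394 for STARD3, genes of the same chromosome band (17q12). Within tumours, ERBB2 exceeded CDK12 in 1 of 6, with a mean log2 ratio of -0.20 ± 0.23 (SD, n = 6; exact two-sided sign-flip permutation test, p = 0.156, adjusted 0.156 over 8 pairs). Without a length correction the mean log2 ratio was -0.51 (exact permutation test, adjusted p = 0.0312). GRB7, which lies beside ERBB2 and is commonly amplified with it, had 3 to 8 counts. Genes of this band can be amplified together, so the ratios to CDK12 do not show whether ERBB2 was amplified, which was not tested.

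Vimentin (VIM), the intermediate filament of mesenchymal cells, reached 200 ± 37.3 CPM per kilobase, CD44, the hyaluronan receptor, 94.6 ± 43.1, FOSL1, a subunit of the AP-1 factor, 51.0 ± 21.0, and CDH2, N-cadherin, 12.5 ± 6.45. In all 6 tumours VIM exceeded KRT8 (mean log2 ratio 2.11 ± 0.78), KRT18 (2.32 ± 0.53), and CDH2 exceeded CDH1 (6.11 ± 0.68). ZEB1, the epithelial repressor, exceeded GRHL2 by 5.03 ± 0.19 and FOSL1 exceeded ESR1 by 8.58 ± 0.59 on the log2 scale with a pseudocount of 0.1, which understates the difference from genes near 0. EGFR, the founding receptor of the HER family, exceeded ERBB2 by 1.25 ± 0.47. Each of these 6 pairs had p = 0.0312 by the exact permutation test, the smallest that 6 tumours allow, and an adjusted p of 0.0357 over 8 pairs. No ratio is given for CD44 and CD24, since CD24 is listed at 0. With median transcript lengths the EGFR and ERBB2 pair had a mean log2 ratio of 0.60, with EGFR still the higher (exact permutation test, adjusted p = 0.0714). The log2 ratio of VIM to KRT8 was smallest in 007, at 0.72, and largest in 005, at 3.09.

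**Figure D2:**
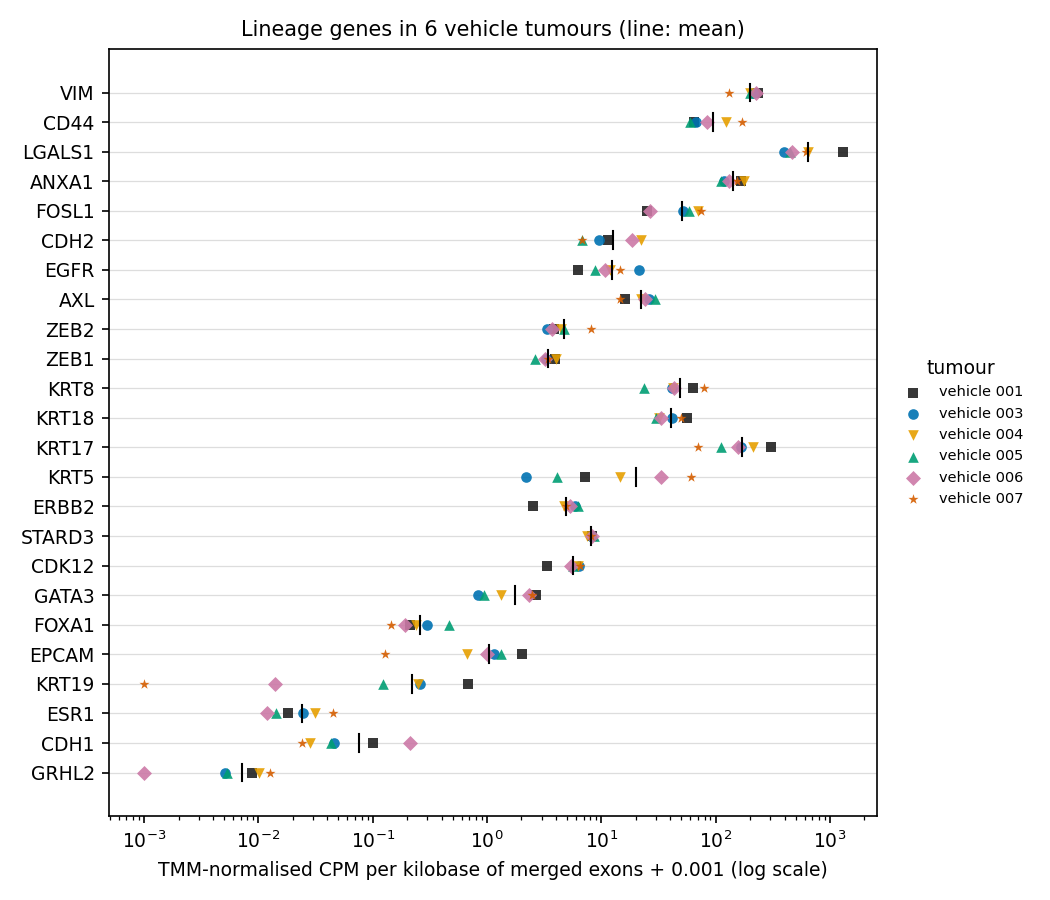
Levels of 24 lineage genes in the 6 vehicle tumours, as TMM-normalised CPM per kilobase of merged exons plus 0.001 on a log axis, with the mean as a line. VIM lies above KRT8 and KRT18 in every tumour, and ESR1, CDH1 and GRHL2 lie below 1 in each.

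Host tissues were checked by their markers, since the sources used here do not say how mouse reads were handled. Of 14 leukocyte markers 7 passed the filter of a mean of 1 CPM, and their summed level over the list was 81.2 to 121 CPM. Among those that did not pass, CD3E and MS4A1, which define T and B cells, had no count in any library. AIF1, a macrophage gene that did not pass either, had 1 count in all. Of 13 endothelial markers 7 passed, with a sum of 41.0 to 86.4 CPM. CDH5, VE-cadherin, did not pass, at 2 counts in 004 and none elsewhere. Of 12 skeletal muscle markers 5 passed, with a sum of 4.68 to 22.6 CPM. Of 9 adipocyte markers 4 passed, with a sum of 70.4 to 147.6 CPM, and ADIPOQ, adiponectin, did not pass, at 0. Of 15 stromal markers 13 passed, with a sum of 956.0 to 3618 CPM, and DCN, decorin of fibroblasts, did not pass, with 0 to 24 counts. The builds named in the processing notes are human, and how many reads of mouse cells were counted is not known. These levels therefore do not show how much host tissue was present, which was not tested. In bulk tumours, fewer cells of a type and less RNA per cell cannot be told apart either.

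To ask which genes differed between the 6 untreated tumours, each gene's spread was set against the spread of genes of the same abundance (edgeR, residual deviance at the trended dispersion, one-sided, Benjamini-Hochberg adjusted p under 0.05). A gene past this test is said to vary. Of 14403 genes 572 varied (3.97%), and 1931 had at least a 4-fold range (13.4%). Without tumour 001, 595 of 14395 varied (4.13%), 333 of them also called with it, and 864 had a 4-fold range (6%). The call rests on the trend as reference. A robust F test in edgeR called 0 genes, with 529 at an unadjusted p under 0.05. DESeq2 marked 40 of the 14403 genes as dispersion outliers, all among the 572. By list, DESeq2 marked 1 gene each of the hypoxia, inflammatory, interferon, basal and glycolytic lists described below, and 2 collagens. It marked 0 of the mesenchymal, ribosomal protein, p53 and skeletal muscle genes.

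The genes with the widest spread encode secreted proteins, matrix components, enzymes and a keratin. FDCSP, a small secreted protein, had 41.7 CPM in tumour 001, 2.697 in 003, 142.9 in 004, 6.72 in 005, 24.1 in 006 and 2.02 in 007, a 68.7-fold range on the scale with a prior count of 2 (adjusted p = 8.74e-23). KYNU, the tryptophan-degrading enzyme kynureninase, had 21.8, 51.6, 7.71, 121.5, 12.6 and 1.24 CPM in the same order, a 93.5-fold range (adjusted p = 2.14e-17). FDCSP was thus highest in 004 and KYNU in 005, and both were lowest in 007. ENPP2, autotaxin, which makes lysophosphatidic acid, had 116.0 CPM in 007 and 2.68 to 13.97 elsewhere (adjusted p = 6.40e-20). F3, tissue factor, the starter of coagulation, had 189.4 CPM in 004, 184.1 in 007 and 10.9 to 28.5 in the other tumours (adjusted p = 1.46e-16). For this gene 2 tumours lay above all others with no value between.

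Matrix genes were found at both ends. BGN, the proteoglycan biglycan, ranged from 0.885 CPM in 007 through a median of 15.2 to 64.1 in 006 (adjusted p = 2.30e-10). MMP7, the protease matrilysin, had 1.70 CPM in 007 and 16.0 to 67.0 elsewhere (adjusted p = 2.66e-09). Tumour 007 was lowest for both. The collagens COL22A1, with 82.2 CPM, and COL4A4, a chain of basement membranes, with 40.9 CPM, were highest in 007 instead. RENBP, an enzyme of N-acetylglucosamine metabolism, had 4.29 CPM in 007 and 32.7 to 129.5 elsewhere, and CDA, cytidine deaminase, ranged from 1.25 in 006 to 35.2 in 007. KRT5, the keratin of basal epithelial cells, had 258.8 CPM in 007, 142.8 in 006, 63.1 in 004, 30.6 in 001, 17.4 in 005 and 9.46 in 003 (adjusted p = 2.21e-13). The rule for naming these genes used the spread with and without tumour 001.

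**Figure D3:**
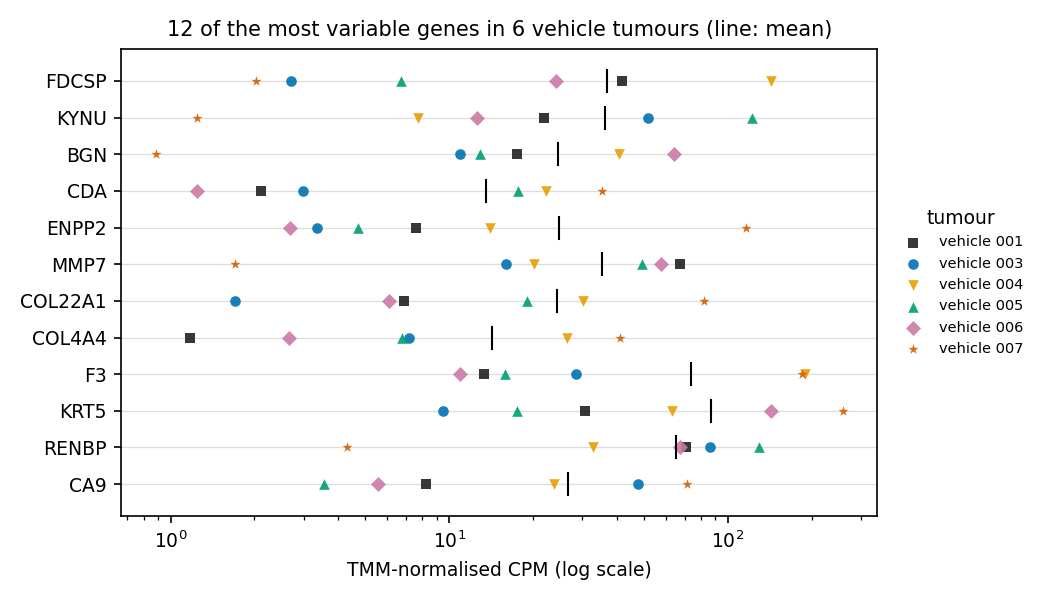
Levels of the 12 named genes with the widest spread in the 6 vehicle tumours, as TMM-normalised CPM on a log axis, with the mean as a line. Tumour 007 is lowest for FDCSP, KYNU, BGN, MMP7 and RENBP and highest for CDA, ENPP2, COL22A1, COL4A4, KRT5 and CA9.

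Of the 572 varying genes, 203 were highest in tumour 001 (35.5%) and 160 in 007 (28.0%), while 171 were lowest in 007 (29.9%) and 158 in 001 (27.6%). Over all genes tested, 32.5% were highest and 34.4% lowest in 001, and 19.9% were highest and 21.1% lowest in 007, so the share highest in 001 was close to that of all genes. Genes highest in 001 were short, with a median merged exon length of 2220 bases, and those lowest in it were long, with 7008.5 bases, against 5007 over all genes tested. The part of gene length in this pattern was not tested. Without 001, 231 of 595 genes were highest in 007 (38.8%), against 27.3% of all genes tested. Tumours 004 and 007 were the 2 highest for 168 of the 595 genes (28.2%). Tumours 003 and 005 were the 2 lowest for 120 (20.2%) and the 2 highest for 80, and 004 and 005 the 2 highest for 10. Pairs of tumours were not counted over all genes tested, so these counts are descriptive and are not read as a shared pattern.

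Genes of the hypoxia response were mostly highest in the same tumour: 20 of 24 peaked in 007, 3 in 003 and 1 in 004, and none in 001, 005 or 006, while 19.9% of all genes tested peaked in 007. The same counts were found under each of 3 scalings. All 24 passed the filter, 10 varied (against 3.97% of genes tested) and the median range was 4.28-fold against 2.08-fold for all genes tested. Without 001, 14 varied (against 4.13%) and 20 were still highest in 007. The list was chosen with earlier results of these data known, so its counts are descriptive.

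CA9, carbonic anhydrase IX at the cell surface, had 8.23 CPM in 001, 47.7 in 003, 23.7 in 004, 3.54 in 005, 5.54 in 006 and 71.0 in 007 (adjusted p = 6.76e-10). CA12, its relative, had 440.9 CPM in 007, 163.4 in 004, 141.8 in 005 and 32.5 to 64.6 in the other tumours (adjusted p = 2.34e-08). The pair differed in order, since 003 stood above 004 for CA9 and below it for CA12. NDRG1, a stress-response gene, had 1367 CPM in 007 and 1161 in 003, with 159.8 to 363.5 in the rest (adjusted p = 1.65e-05). ANGPTL4, a lipase inhibitor, had 154.5 CPM in 007, 99.8 in 003 and 82.5 in 004, against 22.8 to 34.1 elsewhere (adjusted p = 3.83e-04). Tumours 003, 004 and 007 thus lay above 001, 005 and 006 for ANGPTL4, as they did for EGLN3, a prolyl hydroxylase that marks HIF for destruction, with 71.9 to 85.9 against 20.5 to 23.2 CPM.

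The glycolytic regulators PFKFB3, PFKFB4 and PDK1 also varied. PFKFB3 had 218.8 CPM in 007 and 25.96 in 001, PFKFB4 had 58.3 and 5.97, and PDK1, which keeps pyruvate out of mitochondria, 147.4 and 36.8. Of the 17 glycolytic and lactate dehydrogenase genes 9 were highest in 007 (52.9%, against 19.9% of all genes tested). Of these 17 genes 1 varied, HK2, the inducible hexokinase (5.88%, close to the 3.97% of all genes). VEGFA, the vessel growth factor, had 55.3 CPM in 001, 86.2 to 127.1 in 003, 004, 005 and 006, and 261.0 in 007 (adjusted p = 0.117, and 0.00920 without 001).

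**Figure D4:**
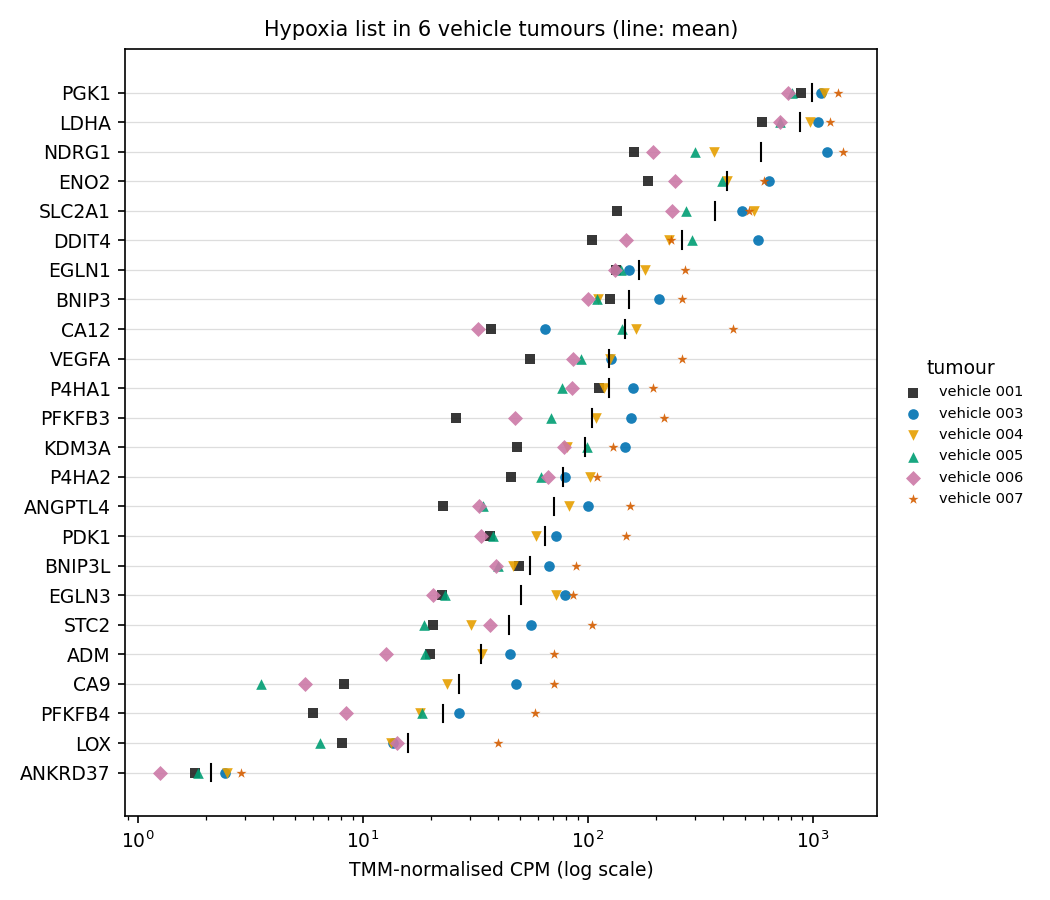
Levels of the 24 hypoxia genes in each vehicle tumour, as TMM-normalised CPM on a log axis, with the mean as a line. Tumour 007 is the rightmost point in 20 of 24 genes, and the leftmost is 001 in 11 genes, 006 in 9 and 005 in 4.

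Of 25 inflammatory genes tested 6 varied, or 24% against 3.97% of all genes, and their highest levels were spread over several tumours. In 007 were 9 of the 25 highest levels (19.9% of all genes tested peak there), in 004 were 6 (9.16%), in 001 were 5 (32.5%) and in 005 none (12.3%). CXCL1, a neutrophil-attracting chemokine, had 305.0 CPM in 004, 168.5 in 001 and 42.0 to 87.7 in the rest (adjusted p = 3.31e-04). CSF3, the growth factor of granulocytes, was also highest in 004 at 67.2 CPM, with 24.97 in 007 and 3.57 to 8.52 elsewhere (adjusted p = 3.33e-09). CCL20, a chemokine of CCR6-bearing cells, had another order, with 258.9 CPM in 007, 246.3 in 005, 148.8 in 004 and 58.6 to 68.5 in the others (adjusted p = 0.00384). PTGS2, the prostaglandin-forming cyclooxygenase COX-2, ran from 13.2 CPM in 001 to 124.4 in 007 (adjusted p = 0.00155). The other 2 varying genes were LIF, highest in 007 at 123.9 CPM, and CCL2, highest in 001 at 50.1 CPM against 6.14 to 22.0, whose call was lost without 001 (adjusted p = 0.517). The level of the list did not rest on small values: SOD2, the mitochondrial superoxide dismutase, had 1732 to 2614 CPM and CCL5 had 369.2 to 1568 CPM. PI3 had 2288 CPM in 007 and 2197 in 004 against 639.5 to 918.8 elsewhere (adjusted p = 0.125, and 6.94e-06 without 001). Without 001, 11 of the list varied (44%, against 4.13% of all genes), among them CXCL8, the chemokine IL-8, with 237.6 CPM in 004 and 57.5 to 84.6 in the other 4 tumours, and IL6 with 182.1 in 007 and 43.8 to 109.7.

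Interferon-induced genes were highest in 001 for 13 of 25 (32.5% of all genes tested peak there) and in 007 for 11 (19.9%), and 2 varied, or 8% against 3.97% of all genes. ISG15 had 2404 CPM in 001 and 232.9 to 365.4 in the other tumours (adjusted p = 5.14e-07). IFI6, a mitochondrial protein induced by interferon, had 2807 CPM in 001 and 586.0 to 1152 elsewhere (adjusted p = 0.0358). Both calls were lost without 001. Then 4 others varied instead, MX2, OAS1, OAS2 and IFIH1, antiviral sensors and effectors, or 16% against 4.13%, and 16 of 25 genes were highest in 007 and 8 in 006, where 27.3% and 21.2% of all genes peaked. OAS2 had 217.2 CPM in 007 and 170.8 in 006 against 69.2 to 82.9 in the others (adjusted p without 001 = 8.23e-04). MX2 had 100.8 and 100.7 CPM in these 2 tumours and 29.9 to 47.3 elsewhere.

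Sterol and lipid synthesis genes had a shared highest tumour too, 005, for 16 of 23 genes under each of 3 scalings (12.3% of all genes tested peak there). None passed the edgeR variation test (3 at an unadjusted p under 0.05, no DESeq2 outlier), and without 001 the only call was INSIG1, which holds back the SREBP factors, with 206.4 CPM in 005, 163.9 in 003 and 79.0 to 97.4 in 004, 006 and 007 (adjusted p = 0.0175). Of 35 cell cycle genes none varied by edgeR (1 at an unadjusted p under 0.05, no DESeq2 outlier), and their median range was 1.76-fold, or 1.46-fold without 001. MKI67, the proliferation antigen Ki-67, had 120.0 CPM in 001 and 248.1 to 423.9 in the others, while PCNA, the sliding clamp of DNA replication, had 316.9 in 001 and 93.5 to 109.7 in the others. These 2 markers of dividing cells thus set 001 on opposite sides.

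Ribosomal protein genes were all highest in 001 (82 of 82 with TMM, 79 with library sizes only) and 17 varied, or 20.7% against 3.97% of all genes. Without 001 none varied by edgeR, with 0 at an unadjusted p under 0.05, and the median range was 1.45-fold in place of 3.47-fold.

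**Figure D5:**
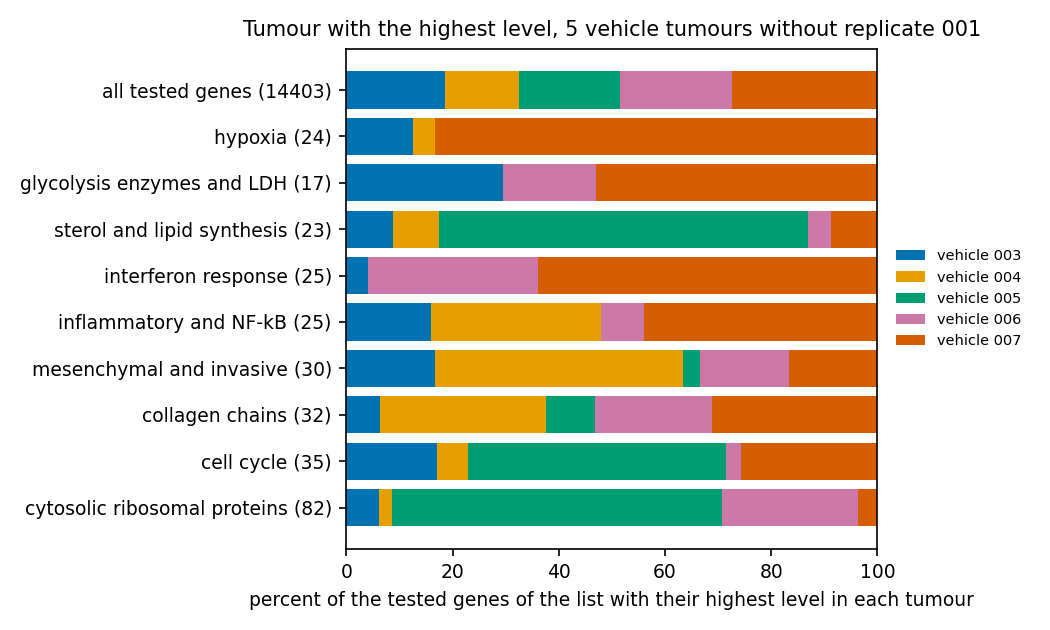
Share of the tested genes of each list with their highest level in each of 5 vehicle tumours, without 001 (percent, bars from 0 to 100). Hypoxia genes are mostly highest in 007 (20 of 24), sterol and lipid synthesis genes in 005 (16 of 23) and mesenchymal genes most often in 004 (14 of 30).

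Mesenchymal genes were highest most often in 004, for 12 of 30 (9.16% of all genes tested peak there), and 4 varied (13.3% against 3.97% of all genes). Without 001, 6 did (20% against 4.13%). FN1, fibronectin, had 1431 CPM in 007, 1315 in 004, 651.5 in 003, 542.0 in 006, 313.8 in 001 and 224.6 in 005 (adjusted p = 0.00612). SPARC, a matrix-associated glycoprotein, had 436.7 in 004, 429.4 in 006 and 400.3 in 001 against 76.0 to 276.0 (adjusted p = 0.00830). MMP14, a membrane-bound collagenase, had 87.3 CPM in 006, 47.2 in 004 and 8.82 to 21.3 elsewhere (adjusted p = 4.36e-05). ITGA5, the fibronectin receptor chain, had 21.8 CPM in 001 and 50.4 to 125.1 in the others (adjusted p = 0.0229), and did not vary without 001 (adjusted p = 0.259). CD44 and CDH2 were called only without 001 (adjusted p = 0.0242 and 1.08e-04), with CD44 highest in 007 at 1684 CPM and CDH2 in 004 at 110.5 CPM.

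Of 32 collagen genes tested 11 varied (34.4% against 3.97% of all genes), and 14 without 001 (43.8% against 4.13%). COL3A1, a fibrillar chain, had 1701 CPM in 004, 965.4 in 006 and 180.1 to 475.1 in the others (adjusted p = 6.84e-04). COL1A1, the main chain of type I collagen, had 227.9 CPM in 004, 217.4 in 006, 156.8 in 005, 125.0 in 001, 88.8 in 007 and 37.8 in 003 (adjusted p = 0.0251). COL5A2 had 915.9 CPM in 004, 529.6 in 003, 352.5 in 007 and 120.6 to 203.2 in the rest (adjusted p = 0.00121). Tumour 004 was highest for all 3. POSTN, the matricellular protein periostin, had 103.4 CPM in 001 and 4.34 to 21.4 elsewhere (adjusted p = 2.05e-12). The stromal list these genes belong to summed to 956.0 to 3618 CPM. Of its 15 genes 13 passed the filter of a mean of 1 CPM, and DCN and LUM did not. The part of host fibroblasts in the collagen levels was not tested.

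Among 13 basal genes tested, KRT5, KRT6A and TP63, the transcription factor of basal epithelium, varied (23.1% against 3.97% of all genes). Without 001, 7 did (53.8% against 4.13%), with KRT14, MYLK, LAMB3 and CNN1 added. TP63 had 11.4 CPM in 006 and 0.531 to 3.20 elsewhere (adjusted p = 0.00375), and KRT6A, a keratin of activated epithelium, 38.5 in 006 and 7.54 to 25.4 elsewhere (adjusted p = 0.0200). KRT17, the most abundant keratin, had 960.6 CPM in 001, 345.6 to 659.6 in 003, 004, 005 and 006, and 221.3 in 007 (adjusted p = 0.334). KRT5 and KRT17 thus had their extremes in opposite directions in 007. KRT8, of the luminal list, was called only without 001, from 161.9 CPM in 005 to 541.4 in 007 (adjusted p = 0.0321).

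For 7 genes, the 5 genes most like each across the 6 tumours were found among 10115 others by Pearson's r of log2 CPM, given as a measure of likeness over 6 points that share depth and library 001. CA9 was most like VIRMA (r = 0.982, and 0.985 without 001), then GBE1, SINHCAF, PLEKHA2 and P4HA1 (r = 0.970 for the last). CXCL8 was most like ANXA2P2, a pseudogene (r = 0.980, and 0.980 without 001), then SHQ1, KLF5, SLMAP and SLC7A11. IFIT1 was most like IFI27, another interferon-induced gene (r = 0.985, and 0.968), then BRMS1L, ZNF302, TRAPPC2 and MSL3. Of these 3 genes, CA9 and IFIT1 had 62 and 82 genes with r over 0.9 and CXCL8 had 8. Over so few points unrelated genes also reach such values, and the number expected by chance was not estimated. Likeness of order does not mean a like size of change. The range between tumours of the genes named for CA9 went from 1.21-fold for VIRMA to 2.78-fold for PLEKHA2. For CXCL8 it went from 1.20-fold for SHQ1 to 1.75-fold for KLF5.

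HMGCS1, which starts sterol synthesis, was most like CEP55 of cell division (r = 0.993, and 0.992 without 001), then CDKAL1, CALM3, CCNY and ERCC6L. MKI67 was most like TUBGCP3 (r = 0.997, and 0.988), then FOXJ3, ATG2A, B4GALT5 and TTC28. EGR1, an immediate early factor, was most like CLDN23 (r = 0.9993, and 0.9996 without 001), then DTX3L, CYBRD1, ST7 and LRP3. COL1A1 was most like ZNF133 (r = 0.936, and 0.939), then APMAP, BARD1, CTSS and CHPF, none of them a collagen. Over 0.9, MKI67 had 622 like genes, HMGCS1 had 36, COL1A1 had 11 and EGR1 had 10. The number expected by chance was not estimated for these either. MKI67 and the genes named for it were all lowest in 001, and no count without 001 is given.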

How the data were processed

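RNA of the 6 vehicle tumours was sequenced as paired-end reads on a HiSeq instrument, from NEBNext Ultra libraries, per the labels' protocols. The submitters' processing notes name bcl2fastq 2.17, STAR 2.7.5c, featureCounts and Subread, edgeR, and the builds GRCh37 and hg19. The annotation, strand setting and any removal of mouse reads were not given in the sources used here. Reads shared between paralogs, pseudogenes, overlapping genes or with similar mouse genes could therefore be counted with a partner. The count table the authors deposited holds whole-number counts per gene symbol, not normalized. The RPM table they deposited was checked to equal counts scaled by the column total (largest difference 9e-13). Columns were matched to samples by the code in the sample description.

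From the counts, TMM factors (edgeR 4.0.16, R 4.3.3) gave CPM. Genes with a mean of at least 1 CPM over the libraries were tested by an intercept-only fit, its residual deviance against chi-square with 5 degrees of freedom. Log2 values had a prior count of 2. Lengths came from GENCODE for 92.9% of symbols. On simulated data 200 of 14403 genes were given an extra SD of 1 (log2). Of these 49.5% were recovered, and 4.81% of calls were false, while an extra SD of 0.5 gave 0.5% recovered. The unchanged genes were simulated at the trend that the test assumes. The 4.81% is therefore not a measure of false calls in the real data, where genes scatter around the trend. The lowest ratio of chi-square to degrees of freedom between libraries was 51.5, so none was a repeat of another. Alternatives were RLE factors, library sizes, other filters, prior counts, lengths and pseudocounts, an F test, DESeq2 1.42.0 and leaving out each library. Members and gene lists were chosen with earlier results of these data known. Named were the 20 most abundant genes per length, the 12 with the largest SD (mean of at least 10 CPM, past the test, and among the 50 largest without 001), the 5 most like each of 7 genes, and list members. Of the rest a few were named for their values. Results for some members are not reported here.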

Additional observations from a re-analysis of the deposited data

Results flagged for a closer look

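A value was picked out here when the highest or lowest of the 6 tumours was separated from its nearest neighbour by a larger part of the whole range than Dixon's 95% critical value, which chance exceeds in about 1 of 20 groups. Of 139 values examined 19 were picked out, and 17 of the 19 were in tumour 001. Chance would give about 7 among independent values. These values are not independent, since classes hold genes that are also examined singly, and some genes were chosen for their level or spread. The 19 are therefore not read as an excess over chance.

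Tumour 001 was far above the others in ribosomal protein genes: RPL8 had 8351 CPM (others 3649 to 4670), RPL13A 5822 (1187 to 1706), RPS3A 4413 (1076 to 1572), RPS21 2566 (429.6 to 544.0) and RPS27 1889 (523.8 to 807.2). The whole class took 14.5% of its counts (others 4.89% to 7.11%), and the mean log2 CPM of its tested genes was 10.25 (8.54 to 8.998). The respiratory chain subunit NDUFS5 had 1321 CPM (345.4 to 393.5), and respiratory chain subunits together took 2.68% of counts (1.24% to 1.39%). Proteasome subunits took 0.971% (0.596% to 0.637%). ISG15 had 2404 CPM (232.9 to 365.4) and PCNA 316.9 CPM (93.5 to 109.7). The mean log2 CPM of 12 housekeeping genes was 9.21 (8.62 to 8.72), and the 100 most abundant genes took 23.91% of counts (16.2% to 17.6%).

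Tumour 001 was far below the others in FLNA with 1482 CPM (6401 to 7855), in ERBB2 with 25.92 CPM (48.2 to 64.4) and in CDK12 with 42.43 CPM (69.9 to 83.4). Outside 001, VIM was lowest in 007 with 670.5 CPM (1026 to 1219), and annexins, which bind membranes in the presence of calcium, were highest in 004 with 0.587% of counts (0.409% to 0.474%).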

How the results depend on the processing

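The count of varying genes, 572, was 580 with RLE factors, 536 with library sizes only, 465 with a mean of at least 5 CPM, 659 with every gene that had a count, and 424 to 595 when 1 tumour was left out. The robust F test gave 0 and DESeq2 gave 40 dispersion outliers. The count of genes with a 4-fold range, 1931, was 1094 with a mean of at least 5 CPM, where 11521 genes were tested, and 864 without tumour 001, the lowest of the counts with 1 tumour left out (the highest was 1826). The EGFR and ERBB2 pair had a log2 ratio of 0.6026 with median transcript lengths, and the ERBB2 and CDK12 pair -0.5112 without a length correction. On the length-scaled level the interferon list took 1.247% in place of 0.667% and collagens 0.3193% in place of 0.600%. The other pairs and classes kept their direction and their side of the threshold, or moved by less than 1 SD, under the alternatives run for them. Apart from the alternatives' own construction, the cause of these changes was not tested.

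No paired analysis was possible because only vehicle tumours were used and no groups were compared. With 6 tumours, an extra SD of 0.5 (log2) was hardly ever recovered in simulated data, so the lack of a call is no sign of equal levels. Genes below about 0.125 RPM were not detectable in the shallowest library.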

Other observations

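Of 22 genes of the unfolded protein response and amino acid stress none varied by edgeR (1 at an unadjusted p under 0.05, no DESeq2 outlier), with a median range of 1.98-fold against 2.08-fold for all genes tested. Of 20 p53 targets 1 varied (5%, against 3.97% of all genes), GDF15, a secreted stress cytokine, with 55.5, 64.5, 11.5, 79.5, 17.7 and 8.75 CPM in tumours 001, 003, 004, 005, 006 and 007 (edgeR, adjusted p = 2.65e-06). It was lowest in 007 and highest in 005.

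Skeletal muscle genes were low but uneven. Of 12 listed, 7 did not pass the filter of a mean of 1 CPM. Genes this low can pass it through the tumours where they are high. The share of the 5 tested that varied, 4 or 80% against 3.97% of all genes, therefore rests in part on the filter and is only descriptive. Without 001, MYH1 and MYH2 varied, 2 of 4 tested, and ACTA1 did not (edgeR, adjusted p = 0.0612). MYH1, a fast myosin heavy chain, had 8.46 CPM in 007, 2.71 in 005, 1.46 in 001 and 0.200 to 0.278 in the other tumours (edgeR, adjusted p = 1.37e-06). PLIN4, a lipid droplet protein of fat cells, had 5.08 CPM in 001 and 61.1 in 007, while ADIPOQ had no count in any tumour.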
